A study of Mus musculus with 12 samples.

Results

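The amino acid transporter genes are described here across 4 groups of mouse cells. Genes on the array were taken by their symbol from the solute carrier families *Slc1*, *Slc3*, *Slc6*, *Slc7*, *Slc36*, *Slc38* and *Slc43*, which gave 59 of 34836 gene names, read by 77 of 55681 probes. The genes were picked by symbol and not by a measured value, but these families were chosen with earlier results of these data known. Of the 59 genes, 34 had a probe that stood well above background on each of the 3 arrays of some group and were tested, as were 18991 gene names in all. The other 25 were not detected by this criterion.

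The study asked what the transcription factor Sox7 contributes when mouse embryonic stem (ES) cells are turned into extraembryonic endoderm. All cells were derived from EB3 ES cells and carried Gata6-GR, full-length mouse *Gata6* joined to the ligand-binding domain of the human glucocorticoid receptor, which enters the nucleus when dexamethasone (Dex) is added. RNA was taken at day 4 from cells kept without Dex (ES cells) and from cells kept with Dex (XEN-like cells, after the cell lines derived from extraembryonic endoderm), and hybridised to 12 one-colour Agilent mouse arrays. Both states were taken from *Sox7* (+/-) and from *Sox7* (-/-) cells, which made 4 groups of 3 arrays. In both genotypes the targeted allele has lost the coding sequence of *Sox7*. The *Sox7* (-/-) cells were obtained from the *Sox7* (+/-) clone by selection with a high dose of puromycin, so that genotype and clone cannot be told apart. All groups were grown in medium with LIF and non-essential amino acids. Dex also acts on the glucocorticoid receptor of the cells themselves, and no group with Dex but without Gata6-GR was among these arrays.

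Amino acids cross the plasma membrane and the membrane of the lysosome through carriers that differ in substrate and in driving force. The Slc7 light chains work as exchangers and need a heavy chain of the Slc3 family to reach the surface, whereas the Slc1, Slc6 and most Slc38 carriers use the sodium gradient to concentrate their substrates in the cell. Mouse ES cells are known for a strong dependence on threonine, and the visceral endoderm is an absorptive epithelium that takes up nutrients for the embryo.

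The signal of a gene is given below as a percentage of the 75th percentile of its array, and levels of different genes cannot be compared with each other because each probe has its own brightness. The 75th percentile lay between 252.3 and 415.9 intensity units, and 41.7% to 52.3% of the spots were well above background. A gene was read by its brightest tested probe and was called when the limma adjusted p was under 0.05 and the change was more than 2-fold. *Sox7* itself lay at 218 to 229% in *Sox7* (+/-) ES cells and at 490 to 688% in *Sox7* (+/-) XEN-like cells, and was not well above background on any array of *Sox7* (-/-) cells. The third array of the *Sox7* (+/-) XEN-like cells stood apart from the other pair, with a lowest correlation of 0.982 over all probes, whereas that pair correlated at 0.994. Many of the results that rest on it, but not all, are given with and without it. Of the 2 slides, 1 held all *Sox7* (-/-) ES arrays with a single XEN-like array of that genotype, and the other held the remaining 8. Nothing states that the arrays of a group came from separate cultures, and in the source labels each *Sox7* (+/-) ES array is called replicate 1, so the p-values measure the spread between these arrays only.

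With Dex, ES cell carriers such as *Slc7a3*, *Slc7a7* and *Slc1a1* fell in both genotypes, and *Slc1a3* and both detected members of the *Slc36* family rose in both. In *Sox7* (+/-) cells 6 of the 34 tested genes were higher and 6 were lower. Over all genes tested in these cells, 11% were called higher and 14.1% lower, 25.1% together, against 35.3% of the transporters. In *Sox7* (-/-) cells 12 transporters were higher and 10 were lower, 64.7% together. There the shares over all genes were 14.6% higher and 14.1% lower, 28.7% together. In *Sox7* (-/-) cells all ES arrays but only 1 XEN-like array were on 1 slide, whereas both *Sox7* (+/-) groups shared the other. The shares of the genotypes are therefore not like with like. With the slide as a block, *Slc3a2*, *Slc6a8* and *Slc6a15* were no longer called in *Sox7* (-/-) cells. Without the third *Sox7* (+/-) XEN-like array the counts in *Sox7* (+/-) cells were 7 and 7, with 25.2% of all genes called. A gene that passed the filter only in the group where it is high had to differ between groups. In 6 of the 34 genes at least 1 group was not above background on all of its arrays, and of the 28 genes above background on all arrays, 4 were higher and 3 lower in *Sox7* (+/-) cells and 8 and 8 in *Sox7* (-/-) cells. The share of all genes under this filter was not counted. Whether the 28 genes were called more often than all genes is therefore not shown, and the 35.3% and 64.7% above include the other 6. In RNA of whole cultures, fewer cells of a type and less RNA per cell cannot be told apart.

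Both responses were measured against separate ES arrays of their own genotype. Of the 34 genes, 5 were higher in both genotypes and 5 were lower in both. 1 gene, *Slc7a9*, was lower in *Sox7* (+/-) cells and higher in *Sox7* (-/-) cells. The groups of arrays did not overlap for 23 of the 34 genes in *Sox7* (+/-) cells and 31 in *Sox7* (-/-) cells, beside 68.8% and 74.9% of all genes. Calls in *Sox7* (-/-) cells alone were made for 6 genes that were higher and 5 that were lower, and *Slc6a16* was called in *Sox7* (+/-) cells alone. The remaining 11 were called in neither. A call in 1 genotype alone does not show that the genotypes differ, and the test of that difference is given further on. The median log2 change of the transporters was 0.06 in *Sox7* (+/-) cells and 0.51 in *Sox7* (-/-) cells, beside 0.16 and 0.07 over all genes tested. Which array scaling was used mattered for *Sox7* (+/-) cells. The median change of all probes there was 0.16 with the 75th percentile but -0.33 with spike-in controls, with which 4 transporters were higher and 11 lower. The deposited table of unscaled signals gave 3 higher and 9 lower.

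**Figure D1:**
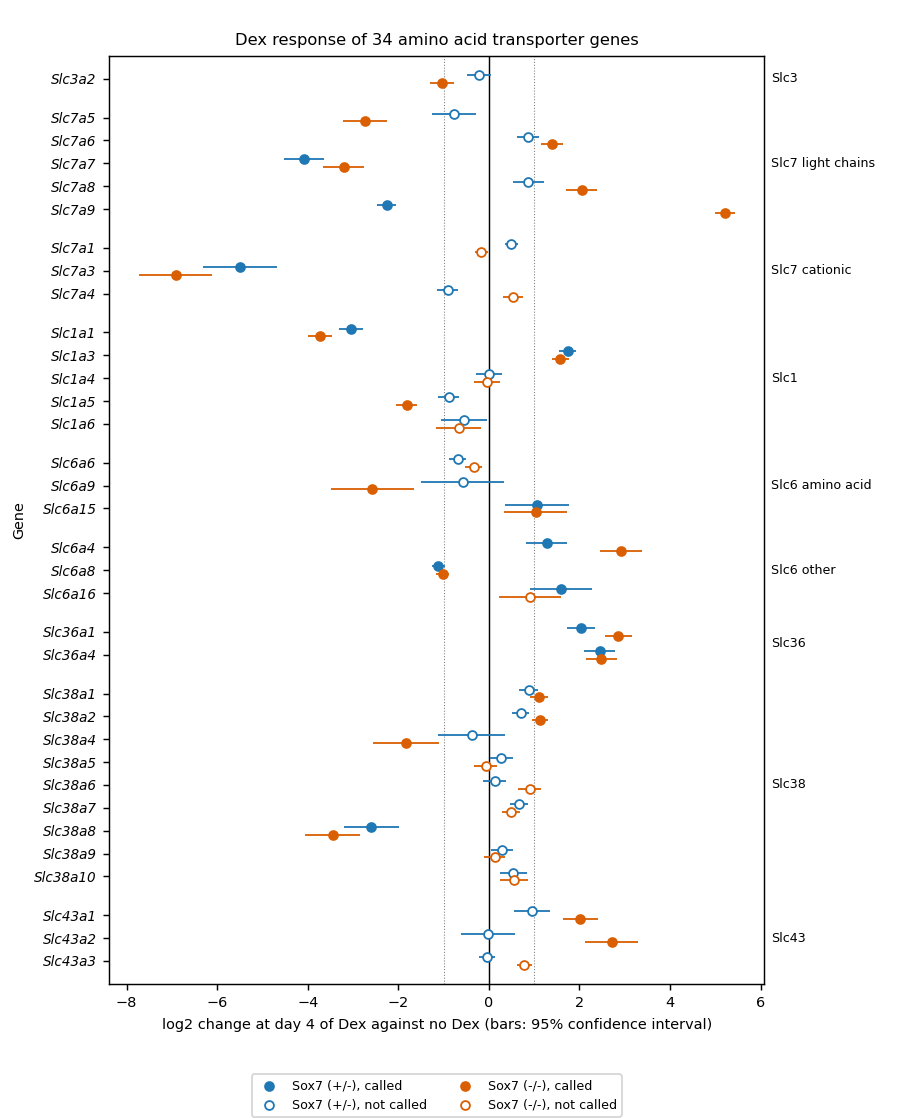
Points show the log2 change with Dex of each of the 34 tested genes in *Sox7* (+/-) cells (blue) and *Sox7* (-/-) cells (orange), with bars for the 95% confidence interval of the limma fit over 12 arrays, filled points for called genes and dotted lines at 2-fold. *Slc7a3* lies farthest to the left in both genotypes and *Slc7a9* lies on opposite sides of 0. For *Slc1a1*, *Slc38a8*, *Slc6a4*, *Slc7a8* and *Slc7a9* at least 1 group was below background, so that the fitted change there is not a measured size.

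*Slc3a2* encodes the heavy chain that carries most Slc7 light chains to the plasma membrane. Its signal was 4586, 5030 and 4577% in *Sox7* (+/-) ES cells, 4610, 4369 and 3304% in *Sox7* (+/-) XEN-like cells, 6564, 7402 and 6696% in *Sox7* (-/-) ES cells and 3507, 3264 and 3329% in *Sox7* (-/-) XEN-like cells. It fell by 1.03 ± 0.12 on the log2 scale (SE, n = 3 arrays a group; limma adjusted p = 2.3e-05) in *Sox7* (-/-) cells, where the groups did not overlap. In *Sox7* (+/-) cells the change was -0.22 and was not called, and the groups overlapped. The responses of *Slc3a2* differed by -0.81 ± 0.17 (limma adjusted p = 0.00573), under 2-fold. Between genotypes it differed by -0.27 in XEN-like cells and 0.54 in ES cells, both under 2-fold. The fall in *Sox7* (-/-) cells lay close to the 2-fold limit and was no longer past it with the slide as a block (-0.97) or without *Sox7* (-/-) ES replicate 2 (-0.98). The slide that holds both groups has only 1 of the *Sox7* (-/-) XEN-like arrays. *Slc3a1* encodes the other heavy chain, the partner of the *Slc7a9* product in cystine uptake. It was not well above background on any array, with 1.69 to 2.87% on 11 arrays and 12.8% on the third *Sox7* (+/-) XEN-like array.

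*Slc7a9* had the largest fitted difference between the responses of the 34 genes tested. It encodes the light chain that exchanges cystine and basic amino acids for neutral ones, as in the kidney tubule and the small intestine. The signal was 22.4, 24.5 and 23.5% in *Sox7* (+/-) ES cells and 92.9, 99.5 and 90.9% in *Sox7* (-/-) XEN-like cells, and it was well above background on all of these arrays. It was not well above background on any array of the *Sox7* (+/-) XEN-like cells (4.39, 5.70 and 4.74%) or the *Sox7* (-/-) ES cells (2.46, 2.62 and 2.54%). None of the 4 groups overlapped with another. With Dex it fell at least 2.15-fold in *Sox7* (+/-) cells (limma adjusted p = 1.63e-08) and rose at least 10.4-fold in *Sox7* (-/-) cells (limma adjusted p = 5.06e-11). For such bounds the mean of the bright group was set against the mean, over the arrays of the dim group, of the lowest signal that counted as well above background, or of the gene's own signal where that was higher. Here and below, a p-value printed beside a bound is that of the fitted difference. That fit uses the signals below background, and the bound itself was not tested. Between genotypes it was at least 8.63-fold higher in *Sox7* (-/-) XEN-like cells (limma adjusted p = 4.1e-09) and at least 2.58-fold lower in *Sox7* (-/-) ES cells (limma adjusted p = 1.28e-08). The bounds hold for the main processing only. With normexp background correction the fall of *Slc7a9* in *Sox7* (+/-) cells was -0.47 and the difference between ES groups -0.85 on the log2 scale. The latter was -0.99 in the deposited table, and none of these 3 values was past 2-fold.

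Markers of visceral endoderm did not move as one with Dex. Of the 10 tested, 4 were higher and 5 lower in *Sox7* (+/-) cells, where *Slc7a9* fell, and 7 were higher and 2 lower in *Sox7* (-/-) cells, where it rose. Their summed signal over the list of 12 genes was 9076 to 9318% in *Sox7* (+/-) ES cells, 7052 to 8011% in *Sox7* (+/-) XEN-like cells, 5590 to 6231% in *Sox7* (-/-) ES cells and 23860 to 25910% in *Sox7* (-/-) XEN-like cells. Sums here and below are weighted to genes with bright probes and do not stand for a whole list. In *Sox7* (-/-) XEN-like cells this sum was mostly *Ihh*, *Cubn* and *Amn* (means of 8151, 7148 and 4675%). *Amn* and *Cubn*, which form the uptake receptor of the visceral endoderm and the kidney tubule, fell in *Sox7* (+/-) cells (-2.08 and -1.85 on the log2 scale) and rose in *Sox7* (-/-) cells (1.53 and 1.82), as *Slc7a9* did. *Ihh*, *Ttr*, *Rbp4* and *Dpp4* rose in both genotypes (2.72, 2.54, 2.92 and 2.25 in *Sox7* (+/-) cells), and *Cdh1* and *Epcam* fell in both (-2.22 and -1.71 in *Sox7* (-/-) cells). *Amn* was at a mean of 2172, 516, 1620 and 4675% in these groups in turn, and *Cubn* was at 4356, 1296, 2051 and 7148%. The defining markers *Afp* and *Apoa1* were not detected. Of the 10 markers tested, 6 were called in *Sox7* (-/-) against *Sox7* (+/-) XEN-like cells, each of them higher, and 4 in ES cells, each of them lower. Over all genes 4.15% were higher between XEN-like groups and 6.63% lower between ES groups. With Dex, 11% of all genes were higher and 14.1% lower in *Sox7* (+/-) cells, and 14.6% and 14.1% in *Sox7* (-/-) cells. Without the third *Sox7* (+/-) XEN-like array the marker count between XEN-like groups was again 6. The part of these markers in the values of *Slc7a9* was not tested.

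The bases upstream of *Slc7a9* are shown because the induced factor is a GATA protein and this gene had the largest difference, together with those of the other tested transporters in which the letters GATAAG occur before a start site. They were taken from RefSeq windows on GRCm38.p6 that reach from 250 bases before to 50 bases after each annotated start, of which the 250 bases before the start are printed. Windows were present for 42 of the 59 genes and 25 of the 34 tested. Capitals mark GATAAG, or CTTATC where it is on the other strand. The sequence of *Slc7a9* is chr7:35448842-35449091 on the plus strand with the letters starting at -167, that of *Slc6a9* is chr4:117855297-117855546 on the plus strand with the letters at -152, and that of *Slc7a7* is chr14:54410204-54410453 on the minus strand with the letters at -191.
Slc7a9: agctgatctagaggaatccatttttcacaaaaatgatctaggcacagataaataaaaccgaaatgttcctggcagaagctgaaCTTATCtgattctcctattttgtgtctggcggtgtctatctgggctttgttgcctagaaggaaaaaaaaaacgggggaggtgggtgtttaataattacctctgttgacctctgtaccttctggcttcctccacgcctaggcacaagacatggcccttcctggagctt
Slc6a9: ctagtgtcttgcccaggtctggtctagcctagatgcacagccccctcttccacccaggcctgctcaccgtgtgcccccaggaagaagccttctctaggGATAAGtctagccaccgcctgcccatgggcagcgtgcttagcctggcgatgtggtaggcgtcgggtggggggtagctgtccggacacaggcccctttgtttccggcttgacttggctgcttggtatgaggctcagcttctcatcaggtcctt
Slc7a7: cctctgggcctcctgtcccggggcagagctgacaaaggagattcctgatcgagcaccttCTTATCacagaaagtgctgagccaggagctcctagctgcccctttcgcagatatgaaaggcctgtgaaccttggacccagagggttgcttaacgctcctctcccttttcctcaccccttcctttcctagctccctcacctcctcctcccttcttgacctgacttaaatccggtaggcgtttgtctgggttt
The letters GATAAG, on either strand, were in the windows of 4 of the 25 tested transporters, the fourth being *Slc38a4*, where they lie after the start. Over all 27025 genes with a window 8.58% hold them in at least 1, and over all 32851 windows 7.44%. The 3 genes printed moved differently with Dex in *Sox7* (-/-) cells, where *Slc7a9* rose and *Slc6a9* and *Slc7a7* fell. *Slc6a9* and *Slc7a9* have further annotated starts, and *Slc7a7* has 5 windows of which 1 holds the letters. The letters TGATGCAA and TGATGAAA, both known as amino acid response elements, were in 2 and 1 of the 25 genes (*Slc1a4* and *Slc7a7*, and *Slc7a7* again), beside 1.03% and 1.15% of all genes with a window and 0.895% and 1.02% of all windows. A match of letters is a description and not a site of binding.

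*Slc7a5* encodes the light chain for large neutral amino acids such as leucine and pairs with the *Slc3a2* product. Its signal was 268, 307 and 283% in *Sox7* (+/-) ES cells and 428, 463 and 435% in *Sox7* (-/-) ES cells. In XEN-like cells it was 209, 208 and 107% in *Sox7* (+/-) cells and 68.2, 63.9 and 66.8% in *Sox7* (-/-) cells. No pair of groups overlapped, and the lowest *Sox7* (+/-) XEN-like value was that of the third array. *Slc7a5* fell in *Sox7* (-/-) cells by 2.74 ± 0.21 (log2, SE; limma adjusted p = 1.33e-06). In *Sox7* (+/-) cells the change was -0.77 ± 0.21 and was not called. Between XEN-like groups it was lower without Sox7 by 1.33 ± 0.21 on the log2 scale (limma adjusted p = 0.00125), and the difference between the responses was -1.96 ± 0.30 (limma adjusted p = 0.00116). Without the third array these last values were -1.66 and -2.28, and both were again called.

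The sizes for *Slc7a5* depended on the probe. The values above are those of a probe at chr8:124405136-124405195 (mm9). A second, dimmer probe lies 25.9 kb away in the same gene, at chr8:124430996-124431055, and is shown because it read smaller changes:
Slc7a5 second probe: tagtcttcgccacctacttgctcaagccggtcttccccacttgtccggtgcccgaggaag
With this probe of *Slc7a5* the signal was 40.8, 41.3 and 47.1% in *Sox7* (+/-) ES cells, 27.8, 32.0 and 25.7% in *Sox7* (+/-) XEN-like cells, 32.1, 28.0 and 39.0% in *Sox7* (-/-) ES cells and 17.5, 16.1 and 17.6% in *Sox7* (-/-) XEN-like cells. Dex gave changes of -0.60 and -0.94, and the genotypes differed by -0.73 (XEN-like) and -0.39 (ES), none of which passed the 2-fold limit. The responses differed by -0.34 ± 0.18 (limma adjusted p = 0.192), so that the called difference of *Slc7a5* rests on the brighter probe. The probes pointed the same way except in ES cells, where the brighter one gave 0.63.

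*Slc7a7* and *Slc7a6* encode the light chains that export basic amino acids in exchange for neutral ones and sodium. *Slc7a7* was at 2440, 2275 and 2337% in *Sox7* (+/-) ES cells and at 2065, 2141 and 1996% in *Sox7* (-/-) ES cells. With Dex it was at 163, 169 and 96.95% and at 254, 245 and 180%. It fell 16.9-fold in *Sox7* (+/-) cells and 9.25-fold in *Sox7* (-/-) cells (limma adjusted p = 4.9e-08 and 2.31e-07), and the difference between these responses, 0.87 ± 0.28, was not past 2-fold. *Slc7a6* went the other way in both, from 254 to 270% up to 444 to 521% in *Sox7* (+/-) cells and from 179 to 243% up to 519 to 564% in *Sox7* (-/-) cells. The change was called in *Sox7* (-/-) cells (1.40 ± 0.11, limma adjusted p = 1.39e-06) and at 0.87 ± 0.11 stayed under 2-fold in *Sox7* (+/-) cells. Ordered by level within the gene, the ES groups of *Slc7a7* were far above the XEN-like groups, and for *Slc7a6* they were below them.

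*Slc7a8*, the light chain for neutral amino acids found in epithelia, was dim. It was at 11.2, 10.6 and 12.2% in *Sox7* (+/-) ES cells, 18.5, 18.5 and 25.4% in *Sox7* (+/-) XEN-like cells and 14.6, 11.04 and 12.01% in *Sox7* (-/-) XEN-like cells. In *Sox7* (-/-) ES cells it was not well above background on any array, with 3.14, 3.36 and 2.61%. It rose with Dex at least 1.37-fold in *Sox7* (-/-) cells (limma adjusted p = 9.59e-07) and was at least 1.24-fold lower in *Sox7* (-/-) than in *Sox7* (+/-) ES cells (limma adjusted p = 1.05e-05). *Slc7a11*, the light chain of the cystine and glutamate exchanger, was at 1.32 to 4.33% on all 12 arrays and was not detected. *Slc7a10*, *Slc7a12*, *Slc7a13* and *Slc7a15* were not detected either.

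The cationic carriers of the *Slc7* family take up arginine and lysine without a heavy chain. *Slc7a3* had the largest fitted fall with Dex of the 34 genes tested in both genotypes. It was at 2630, 2724 and 2842% in *Sox7* (+/-) ES cells and at 4534, 4638 and 4457% in *Sox7* (-/-) ES cells. In XEN-like cells it was at 94.4, 83.9 and 27.8% in *Sox7* (+/-) cells and at 41.7, 36 and 35.3% in *Sox7* (-/-) cells. It fell 45.2-fold in *Sox7* (+/-) cells (log2 -5.50 ± 0.36, limma adjusted p = 4.56e-07) and 121-fold in *Sox7* (-/-) cells (-6.92 ± 0.36, limma adjusted p = 6.34e-08). In ES cells the genotypes differed by 0.73 (limma adjusted p = 0.125). The third *Sox7* (+/-) XEN-like array was below all 3 *Sox7* (-/-) XEN-like arrays and the other pair above them. The difference in XEN-like cells was -0.69 (limma adjusted p = 0.17) and that between the responses -1.42 (limma adjusted p = 0.0659). Without the third array they were -1.25 (limma adjusted p = 1.01e-05) and -1.98 (limma adjusted p = 4.03e-06), both past the threshold.

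*Slc7a1*, the widely expressed arginine carrier, was at 4271 to 4709% in *Sox7* (+/-) ES cells, 6230 to 6589% in *Sox7* (+/-) XEN-like cells, 5591 to 6020% in *Sox7* (-/-) ES cells and 5065 to 5384% in *Sox7* (-/-) XEN-like cells. The changes with Dex were 0.50 and -0.17, neither past 2-fold, and the difference between them was -0.67 ± 0.09 (limma adjusted p = 0.000569), also under 2-fold. Between genotypes *Slc7a1* differed by -0.30 in XEN-like cells and 0.36 in ES cells, both under 2-fold. *Slc7a4*, a relative whose substrate is not settled, was at 46.2 to 55.6%, 25.3 to 29.2%, 61.3 to 69.7% and 89.4 to 105% in the same order. No pair of groups overlapped. Between XEN-like groups it was higher without Sox7 by 1.78 ± 0.10 (log2, limma adjusted p = 1.83e-06), and the responses differed by 1.44 ± 0.14 (limma adjusted p = 7.04e-05), whereas neither response alone was past 2-fold (-0.91 and 0.53). *Slc7a2* and *Slc7a14* were not detected.

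**Figure D2:**
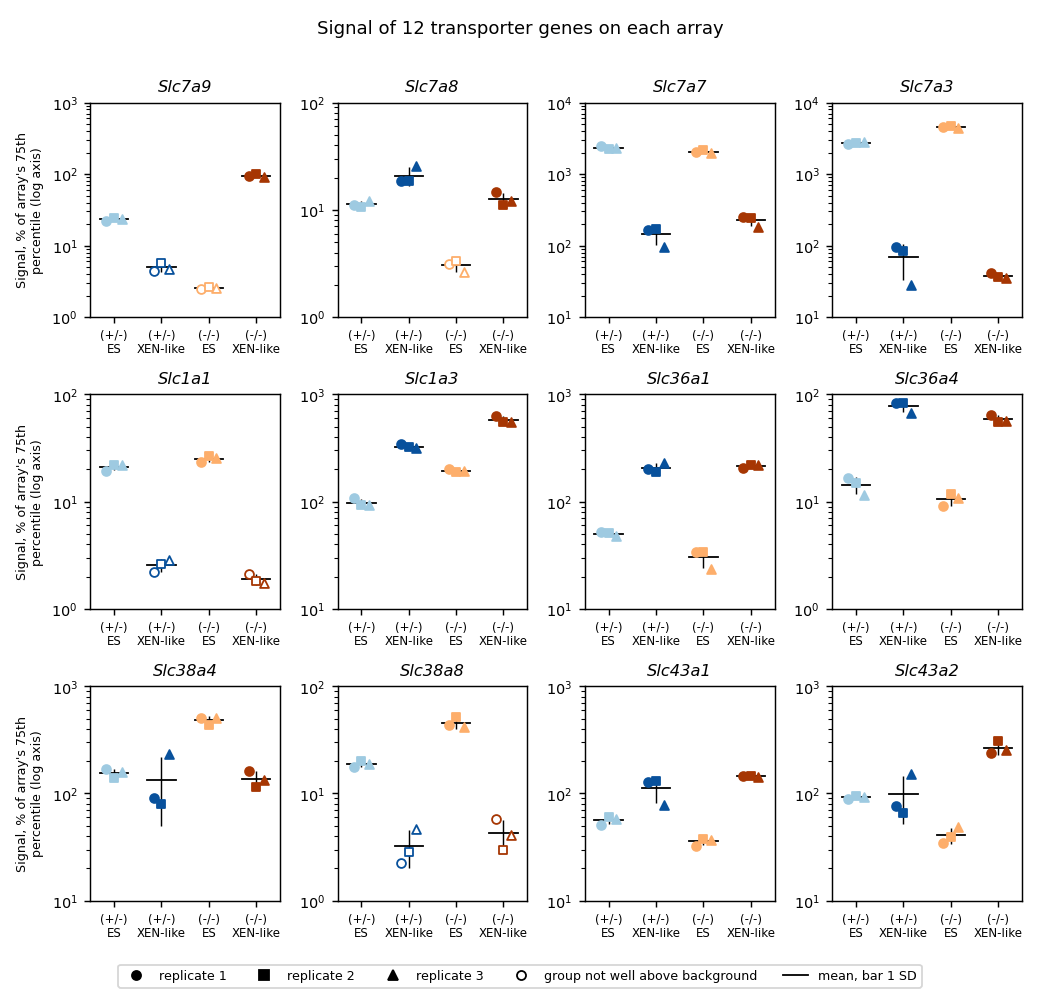
Each panel gives the signal of 1 gene on each of the 12 arrays as a percentage of the array's 75th percentile, on a log axis, with 1 symbol for each replicate number, a line for the mean and a bar of 1 SD (n = 3 arrays a group). Open symbols mark groups not well above background on any array, as for *Slc7a9* in *Sox7* (+/-) XEN-like and *Sox7* (-/-) ES cells. The third *Sox7* (+/-) XEN-like array (triangle) is lowest of its group for *Slc7a3* and highest for *Slc38a4* and *Slc43a2*.

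The glutamate carriers of the *Slc1* family split. *Slc1a1*, which takes up glutamate and cysteine, was at 19.3, 22.0 and 22.2% in *Sox7* (+/-) ES cells and at 23.5, 26.6 and 25.5% in *Sox7* (-/-) ES cells. It was not well above background on any XEN-like array (1.74 to 2.88%), and so fell at least 1.93-fold and at least 3.32-fold (limma adjusted p = 9.05e-09 and 1.64e-09). *Slc1a3*, another glutamate carrier, rose in both genotypes, from 107, 92.4 and 93.8% to 342, 321 and 316% in *Sox7* (+/-) cells and from 201, 187 and 193% to 632, 555 and 549% in *Sox7* (-/-) cells. The changes were 1.74 and 1.58, each ± 0.08 (log2, SE; limma adjusted p = 4.3e-08 and 7e-08), and the difference between them was -0.16 with a 95% interval from -0.43 to 0.10. *Slc1a3* was also higher in *Sox7* (-/-) cells by 0.99 in ES cells and 0.82 in XEN-like cells, with no overlap, both under 2-fold.

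*Slc1a5*, the exchanger for glutamine and other small neutral amino acids, fell in *Sox7* (-/-) cells from 820, 810 and 811% to 238, 224 and 231% (-1.82 ± 0.10, limma adjusted p = 9.96e-08). In *Sox7* (+/-) cells it went from 467, 512 and 504% to 247, 240 and 319%, a change of -0.89 ± 0.10 that was not past 2-fold and became -1.02 without the third XEN-like array. Its other tested probe gave -1.78 and -0.86. The difference between the responses was -0.92 ± 0.14. Between genotypes *Slc1a5* differed by -0.20 in XEN-like cells and 0.72 in ES cells, both under 2-fold. *Slc1a4*, a carrier for serine, alanine and threonine, gave changes of -0.00 and -0.04, with intervals from -0.28 to 0.28 and from -0.32 to 0.24. *Slc1a6* was called in no comparison (-0.55 and -0.67 with Dex), and *Slc1a2* and *Slc1a7* were not detected.

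Among the sodium- and chloride-coupled *Slc6* carriers of amino acids, *Slc6a9*, which takes up glycine, differed most. It was at 402, 490 and 462% in *Sox7* (+/-) ES cells and at 443, 486 and 459% in *Sox7* (-/-) ES cells. In XEN-like cells it was at 491, 447 and 126% in *Sox7* (+/-) cells and at 74.3, 72.5 and 87.0% in *Sox7* (-/-) cells. The pair of *Sox7* (+/-) XEN-like arrays lay within or just above the range of the ES arrays, and the third was closer to the *Sox7* (-/-) XEN-like arrays but above them. *Slc6a9* fell in *Sox7* (-/-) cells by 2.57 ± 0.41 (log2, SE; limma adjusted p = 0.000278) and was lower in *Sox7* (-/-) XEN-like cells by 1.96 ± 0.41 (limma adjusted p = 0.00535). Without the third array the latter value was -2.59 (limma adjusted p = 6.86e-07), and in a fit of the XEN-like groups alone the call was lost (limma adjusted p = 0.0537). The responses differed by -2.002 ± 0.58 (limma adjusted p = 0.0288). That call was lost in 10 of 12 fits that each left out 1 array, and without the third array the value was -2.63 (limma adjusted p = 2.76e-06). With the slide as a block it was -2.07 (limma adjusted p = 0.0947).

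*Slc6a15*, a carrier of branched-chain amino acids and proline in neurons, was called higher in both genotypes, 1.07 ± 0.31 and 1.03 ± 0.31. In *Sox7* (+/-) cells the groups overlapped (31.3 to 40.6% without Dex, and 105, 100 and 38.8% with Dex). In *Sox7* (-/-) cells they did not (38.8 to 46.9% and 82.1 to 86.7%), but the call of *Slc6a15* there was lost with the slide as a block (1.07, limma adjusted p = 0.0859) and without *Sox7* (-/-) ES replicate 2 or 3 (both 0.99). *Slc6a6*, the taurine carrier, changed by -0.69 and -0.34, neither past 2-fold. *Slc6a5*, *Slc6a7*, *Slc6a14*, *Slc6a17*, *Slc6a18* and *Slc6a19* were not detected.

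The other *Slc6* members carry transmitters and creatine. *Slc6a8*, the creatine carrier, fell in both genotypes by close to 2-fold, from 3108 to 3220% down to 1389 to 1560% (-1.11 ± 0.06) and from 3569 to 3754% down to 1770 to 1882% (-1.02 ± 0.06). The value in *Sox7* (-/-) cells was -0.96 with the slide as a block and also just under 2-fold without *Sox7* (-/-) XEN-like replicate 3. *Slc6a4*, the serotonin carrier, was above background in *Sox7* (-/-) XEN-like cells alone, at 17.7, 18.2 and 17.5%, against 1.73 to 7.02% on the other 9 arrays. It rose at least 1.95-fold in *Sox7* (-/-) cells (limma adjusted p = 5.8e-07) and exceeded its level in *Sox7* (+/-) XEN-like cells at least 1.63-fold (limma adjusted p = 0.000113). *Slc6a4* was also among the calls in *Sox7* (+/-) cells, where neither group was above background, and without it the counts there were 5 higher and 6 lower.

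*Slc6a16*, an orphan relative, rose in *Sox7* (+/-) cells from 28.5, 21.9 and 25.4% to 53.0, 64.4 and 127% (1.59 ± 0.30, limma adjusted p = 0.00108). In *Sox7* (-/-) cells it went from 14.5 to 25.3% to 31.5 to 40.9%, which was not past 2-fold (0.91 ± 0.30). It was lower in *Sox7* (-/-) XEN-like cells by 1.07 ± 0.30 on the log2 scale (limma adjusted p = 0.0217). That value rested on the third array and was -0.70 without it, and the call was also lost without *Sox7* (-/-) XEN-like replicate 2 or 3 (limma adjusted p = 0.0708 and 0.052). *Slc6a2*, *Slc6a3*, *Slc6a11*, *Slc6a12* and *Slc6a13* were not detected.

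Both detected *Slc36* carriers rose together. *Slc36a1*, which exports small amino acids from the lysosome, went from 51.9, 50.6 and 47.7% to 201, 188 and 231% in *Sox7* (+/-) cells and from 33.7, 33.6 and 23.4% to 208, 221 and 221% in *Sox7* (-/-) cells. The changes were 4.12-fold and 7.27-fold (limma adjusted p = 5.2e-07 and 3.23e-08). *Slc36a4*, a carrier of proline and tryptophan, went from 16.7, 15 and 11.5% to 82.4, 83.9 and 67.2% and from 9.04, 11.9 and 10.9% to 64.4, 55.9 and 56.9%. These changes were 5.45-fold and 5.59-fold (limma adjusted p = 3.41e-07 and 2.37e-07), with *Slc36a4* well above background on only 1 of the 3 *Sox7* (-/-) ES arrays. For *Slc36a4* the responses differed by 0.04 with a 95% interval from -0.45 to 0.53, and for *Slc36a1* by 0.82 ± 0.19. *Slc36a2* and *Slc36a3* were not detected.

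The *Slc38* carriers take up glutamine and other small neutral amino acids, or move them across the lysosome. *Slc38a1* and *Slc38a2*, the widely expressed sodium-coupled carriers, were higher with Dex in *Sox7* (-/-) cells. *Slc38a1* went from 2838, 2977 and 2975% to 6610, 6089 and 6163% (1.10 ± 0.09, limma adjusted p = 1.8e-06), and *Slc38a2* from 3442, 3456 and 3367% to 7422, 7612 and 7475% (1.13 ± 0.08, limma adjusted p = 6.36e-07). In *Sox7* (+/-) cells the changes were 0.88 and 0.70, without overlap and under 2-fold. The differences between the responses were 0.22 (interval -0.06 to 0.51) and 0.43 ± 0.11. Between XEN-like groups *Slc38a2* was higher without Sox7 by 0.90 ± 0.08 (limma adjusted p = 3.04e-05), under 2-fold, and *Slc38a1* differed by 0.085. In ES cells the genotypes differed by -0.14 for *Slc38a1* and 0.47 for *Slc38a2*, both under 2-fold. Of the 3 tested probes of *Slc38a1*, 1 gave 0.94 in *Sox7* (-/-) cells and was not called.

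*Slc38a8* and *Slc38a4* were the other members of the family with calls. *Slc38a8*, a glutamine carrier known from the retina, was at 17.7, 20.2 and 18.7% in *Sox7* (+/-) ES cells and at 43.5, 51.1 and 41.5% in *Sox7* (-/-) ES cells. It was not above background on any XEN-like array (2.25 to 5.74%) and fell at least 1.72-fold and at least 5.97-fold (limma adjusted p = 1.59e-05 and 1.45e-06). *Slc38a4*, a carrier of neutral and basic amino acids known from liver and placenta, was at 168, 141 and 158% in *Sox7* (+/-) ES cells and at 503, 435 and 511% in *Sox7* (-/-) ES cells. With Dex it was at 91.2, 80.1 and 232% in *Sox7* (+/-) cells, where the third array lay above all ES arrays of the genotype and the other pair below them, and at 162, 115 and 135% in *Sox7* (-/-) cells. It fell in *Sox7* (-/-) cells by 1.83 ± 0.33 (limma adjusted p = 0.00064). The responses differed by -1.45 ± 0.47 (limma adjusted p = 0.0431), which was -0.97 without the third array and was lost in 10 of 12 fits that left out 1 array and with the slide as a block (-1.19, limma adjusted p = 0.197).

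*Slc38a5*, *Slc38a6*, *Slc38a7*, *Slc38a9* and *Slc38a10* were called in no comparison. *Slc38a9*, the arginine-sensing carrier of the lysosome, changed by 0.29 and 0.13 with Dex, and *Slc38a7*, which exports glutamine from the lysosome, by 0.66 and 0.49. *Slc38a6* changed by 0.13 and 0.90. *Slc38a3* and *Slc38a11* were not detected.

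The *Slc43* carriers take up essential neutral amino acids by facilitated diffusion (*Slc43a1* and *Slc43a2*) or nucleobases (*Slc43a3*). *Slc43a2* was at 89.0, 95.6 and 93.7% in *Sox7* (+/-) ES cells, 76.96, 65.95 and 152% in *Sox7* (+/-) XEN-like cells, 34.5, 39.7 and 48.2% in *Sox7* (-/-) ES cells and 237, 308 and 254% in *Sox7* (-/-) XEN-like cells. It rose in *Sox7* (-/-) cells by 2.71 ± 0.27 (limma adjusted p = 7.42e-06). In *Sox7* (+/-) cells, where the groups overlapped only through the third XEN-like array, it gave -0.02 with an interval from -0.61 to 0.58. Between XEN-like groups it was higher without Sox7 by 1.53 ± 0.27 (limma adjusted p = 0.00194), and the responses differed by 2.73 ± 0.38 (limma adjusted p = 0.000573). Without the third array these values were 1.89 and 3.09. *Slc43a1* rose in *Sox7* (-/-) cells from 32.7, 37.95 and 36.7% to 145, 145 and 144% (2.02 ± 0.18, limma adjusted p = 2.82e-06). In *Sox7* (+/-) cells it went from 51.0 to 60.7% to 127, 131 and 77.4% (0.95 ± 0.18), the third array being lowest. The difference, 1.07 ± 0.25, was 0.82 without the third array, and with the slide as a block it was no longer called (1.07, limma adjusted p = 0.0515). *Slc43a3* gave -0.04 and 0.78.

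Comparison of the genotypes in XEN-like cells called 4 transporters higher and 3 lower in *Sox7* (-/-) cells, 20.6% of the 34. Over all genes tested, 4.15% were higher and 3.4% lower there, 7.55% together. The higher genes were *Slc7a9*, *Slc6a4*, *Slc7a4* and *Slc43a2*, and the lower ones *Slc7a5*, *Slc6a9* and *Slc6a16*. *Slc6a4* was tested only because it was above background in *Sox7* (-/-) XEN-like cells, so that its higher call was set by the filter. Among the 28 genes above background on all arrays, the higher ones were *Slc7a4* and *Slc43a2*. The share of all genes under this filter was not counted. Without the third *Sox7* (+/-) array the counts were again 4 and 3, with *Slc7a3* in place of *Slc6a16* and 7.2% of all genes called. The groups did not overlap for 20 of the 34, beside 47.2% of all genes. Among arrays of the slide that holds both groups 4 were higher and 2 lower. The median difference was 0.09 for the transporters and 0.01 for all genes. The split depended on the scaling, with 6 higher and 2 lower by the spike-in controls and 6 and 1 in the deposited table.

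Comparison of the genotypes in ES cells called 2 transporters higher and 3 lower in *Sox7* (-/-) cells, 14.7% of the 34, while 1.97% of all genes were higher and 6.63% lower, 8.6% together. The higher genes were *Slc38a4* (1.64 ± 0.33, limma adjusted p = 0.00284) and *Slc38a8* (1.26 ± 0.27, limma adjusted p = 0.00424), and the lower ones *Slc7a9*, *Slc7a8* and *Slc43a2* (-1.20 ± 0.27, limma adjusted p = 0.00486). All ES arrays of 1 genotype were on 1 slide and those of the other on another, so that slide could be taken into account only through the *Sox7* (-/-) XEN-like arrays, which were on both. The groups did not overlap for 26 of the 34, beside 67.1% of all genes. With the slide as a block 2 transporters were called, *Slc7a8* and *Slc7a9*, both lower. *Slc38a4*, *Slc38a8* and *Slc43a2* were no longer called (1.25, 0.55 and -0.96, with limma adjusted p = 0.217, 0.453 and 0.247). The median difference was 0.13 for the transporters and 0.11 for all genes. The deposited table gave 1 higher and 0 lower.

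**Figure D3:**
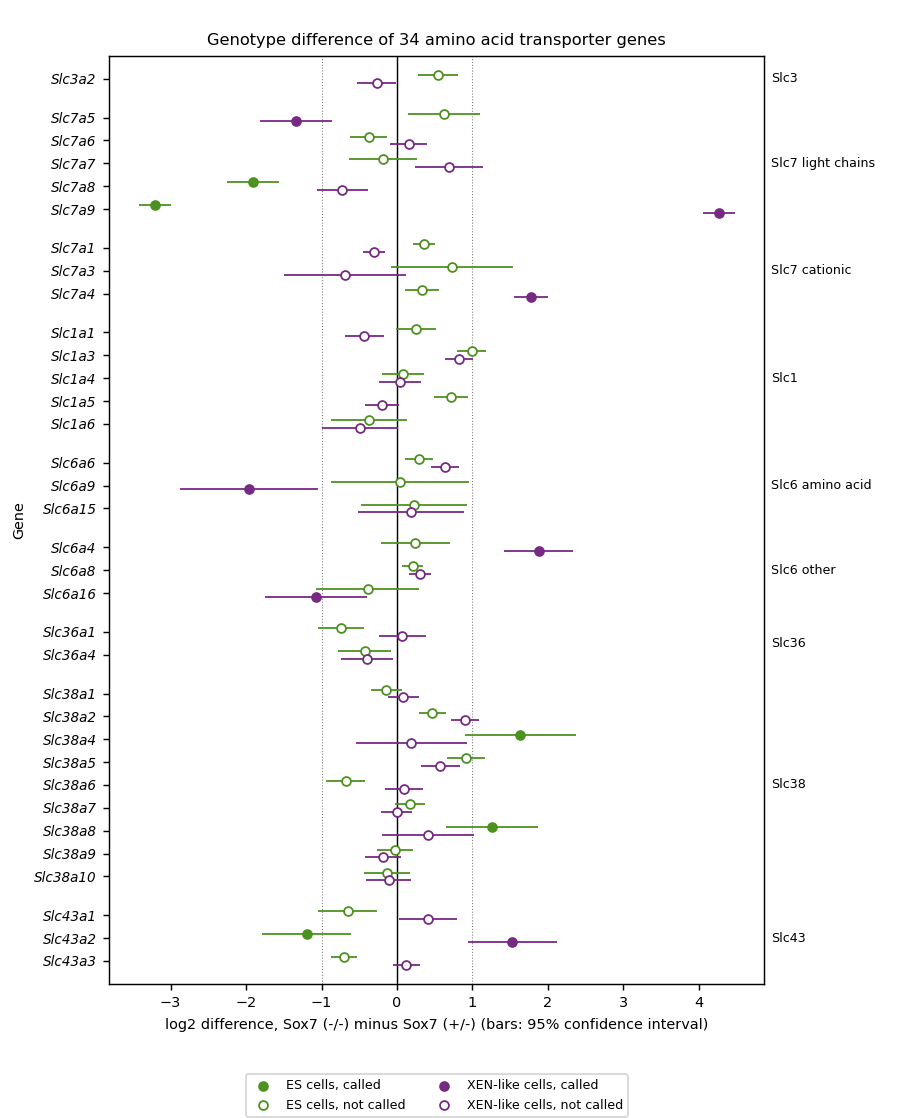
Points show the log2 difference of *Sox7* (-/-) minus *Sox7* (+/-) cells for each of the 34 tested genes in ES cells (green) and XEN-like cells (purple), with bars for the 95% confidence interval of the limma fit over 12 arrays, filled points for called genes and dotted lines at 2-fold. *Slc7a9* and *Slc43a2* lie to the left in ES cells and to the right in XEN-like cells. Fitted differences of *Slc6a4*, *Slc7a8* and *Slc7a9* rest on at least 1 group below background.

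The test of the difference between the Dex responses called 9 of the 34 transporters, 26.5%, with fitted values of which 6 were more positive and 3 were more negative in *Sox7* (-/-) cells. Over all genes tested 7.05% and 3.16% were called in these directions, 10.2% together. The 6 were *Slc7a9*, *Slc43a2*, *Slc6a4*, *Slc7a4*, *Slc7a8* and *Slc43a1*, and the 3 were *Slc6a9*, *Slc7a5* and *Slc38a4*. The differences of each XEN-like array from each ES array of its genotype did not overlap between the genotypes for 22 of the 34, beside 34.3% of all genes. *Slc7a9*, *Slc6a4* and *Slc7a8* have groups below background, so that a size cannot be given for them. For *Slc7a8* the direction is not settled either, since the rise of at least 1.37-fold in *Sox7* (-/-) cells may be smaller or larger than the 1.82-fold measured in *Sox7* (+/-) cells, and the fitted difference was -0.03 with normexp background correction and 0.29 (limma adjusted p = 0.473) in the deposited table. For *Slc6a4* neither *Sox7* (+/-) group was above background, so that its response there was not measured. It passed the filter only through *Sox7* (-/-) XEN-like cells, and the 26.5% includes it. Of the 6, *Slc43a2*, *Slc7a4* and *Slc43a1* were above background on all arrays. For *Slc7a5* the call is that of the brighter probe, and the second probe gave -0.34. The counts over the 34 genes were 5 and 3 without the third *Sox7* (+/-) XEN-like array, 5 and 1 with the slide as a block, and 10 and 1 with spike-in scaling. Leaving out 1 array at a time gave 1 to 3 genes that were more negative, depending mainly on *Slc6a9* and *Slc38a4*.

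Other genes of amino acid metabolism were read from lists. Of 12 genes of the amino acid response, which is switched on by Atf4 when amino acids run short and also controls several carriers, 4 were called in *Sox7* (-/-) against *Sox7* (+/-) XEN-like cells, each of them lower, with a median of -1.03 beside 0.01 for all genes. These were *Atf3*, *Trib3*, *Eif4ebp1* and *Ddit4*, while 3.4% of all genes were called lower in this comparison. Without the third *Sox7* (+/-) XEN-like array the count was 7. With Dex 2 were higher and 2 lower in *Sox7* (+/-) cells and 2 and 6 in *Sox7* (-/-) cells, and in ES cells 1 was higher and 2 were lower in *Sox7* (-/-) cells. Over all genes 11% were higher and 14.1% lower with Dex in *Sox7* (+/-) cells, and 14.6% and 14.1% in *Sox7* (-/-) cells. Between ES groups 1.97% of all genes were higher and 6.63% lower. The 2 lower in ES cells were *Atf3* and *Ddit4* (-1.98 and -2.82), with smaller differences in XEN-like cells (-1.26 and -2.06). Their lower levels in *Sox7* (-/-) cells were thus present without Dex. The responses differed for 6 of the 12, each more negative in *Sox7* (-/-) cells, and for 7 without the third array. Over all genes 3.16% were called more negative, and 3.32% without that array.

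Most genes of this list were low together with *Slc7a5*, *Slc6a9* and *Slc7a3* on the third *Sox7* (+/-) XEN-like array. That array also stood apart for genes outside the list. It was lowest in its group for *Rbp4* (1003, 1037 and 132%) and *Gata6* (1844, 1984 and 1071%), and highest for *Cubn* (872, 1010 and 2006%). How many of all genes were lowest on it was not counted. *Chac1*, an enzyme that degrades glutathione, was at 855, 671 and 147% in *Sox7* (+/-) XEN-like cells and at a mean of 163% in *Sox7* (-/-) XEN-like cells. *Trib3*, a pseudokinase that restrains Atf4, was at 1387, 1149 and 333% in the former and at a mean of 314% in the latter. *Atf4* was at 23360, 21770 and 12710% and at a mean of 9395%. *Asns*, the asparagine synthetase, was at 10390, 9664 and 5854% and at a mean of 7148%. On the third *Sox7* (+/-) XEN-like array, which was the low one for *Slc7a5*, *Slc6a9* and *Slc7a3*, these 4 response genes were also lowest in their group. So were *Atf3*, *Ddit3*, *Cebpb*, *Eif4ebp1*, *Vldlr* and *Nupr1* of the same list, whereas *Sesn2* and *Ddit4* were highest there (2067 and 3688%). The part of the response genes in the levels of the carriers was not tested.

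**Figure D4:**
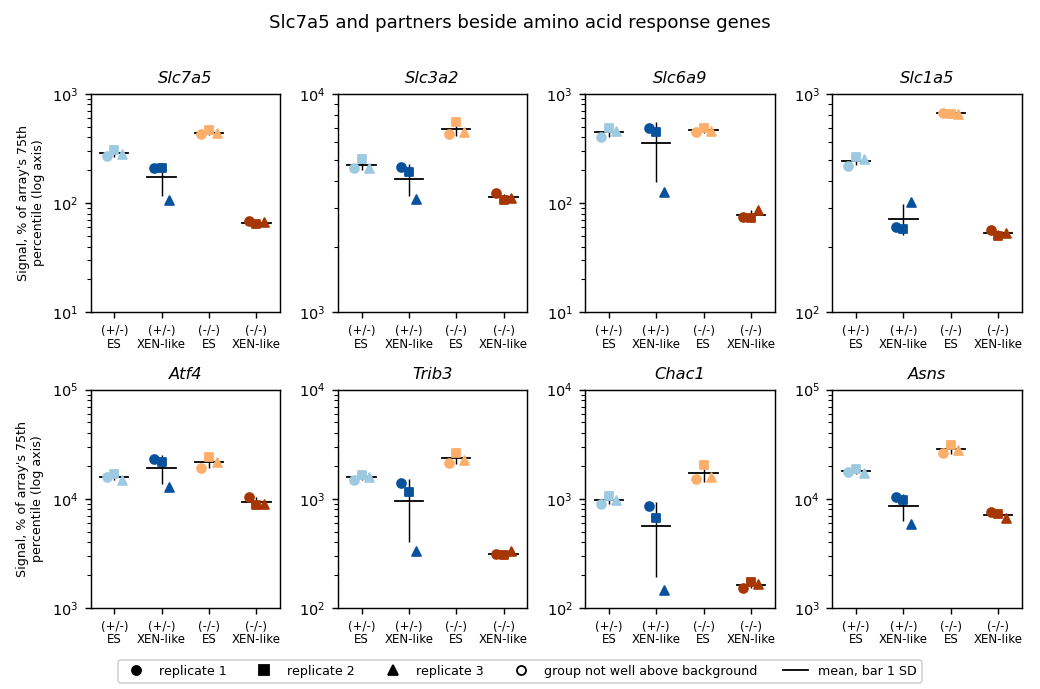
Each panel gives the signal of 1 gene on each of the 12 arrays as a percentage of the array's 75th percentile, on a log axis, with 1 symbol for each replicate number, a line for the mean and a bar of 1 SD (n = 3 arrays a group). The upper row shows 4 transporters and the lower row 4 genes of the amino acid response. The third *Sox7* (+/-) XEN-like array (triangle) lies below its group for all of them except *Slc1a5*.

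In the serine, glycine and threonine list, 3 of 12 genes were lower with Dex in *Sox7* (+/-) cells and 6 in *Sox7* (-/-) cells, beside 14.1% of all genes in each. *Tdh*, the threonine dehydrogenase on which mouse ES cells depend, fell by 3.70 and by 2.66 on the log2 scale in *Sox7* (+/-) and *Sox7* (-/-) cells (limma adjusted p = 9.89e-09 and 8.38e-08). *Gcat*, which acts after it, fell by 1.08 and by 1.02, and *Shmt2*, a serine hydroxymethyltransferase of the mitochondrion, fell by 1.85 in *Sox7* (-/-) cells, with -0.54 in *Sox7* (+/-) cells. In the glutamine and glutathione list, 1 of 7 genes was lower with Dex in *Sox7* (+/-) cells and 1 was higher in *Sox7* (-/-) XEN-like cells, the same gene in both cases, beside 14.1% and 4.15% of all genes. *Ggt1*, an enzyme of the brush border that splits extracellular glutathione, fell in *Sox7* (+/-) cells (-1.40) and was higher in *Sox7* (-/-) XEN-like cells (2.78, limma adjusted p = 3.83e-06).

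In the list of amino acid sensing at the lysosome, 2 of 18 genes were higher and 1 lower with Dex in *Sox7* (+/-) cells, and 3 and 1 in *Sox7* (-/-) cells. Over all genes 11% and 14.6% were higher and 14.1% were lower in each, so that the shares of this list were near or below those of all genes. *Rragc*, a GTPase that ties mTORC1 to the lysosome, and *Sesn3*, a sestrin, were higher in both. Of the partners and other carriers 5 of 7 were tested. *Slc16a10*, which exports aromatic amino acids, rose in *Sox7* (-/-) cells from a mean of 2.91%, not well above background, to 51.9% (limma adjusted p = 1.69e-08), and its response was more positive than in *Sox7* (+/-) cells (20.1% to 39.3%; limma adjusted p = 1.61e-05). *Slc25a22*, a glutamate carrier of the mitochondrion, also rose in *Sox7* (-/-) cells (1.74, limma adjusted p = 9.56e-06). *Tmem27*, which helps to bring the *Slc6a18* and *Slc6a19* products to the surface in the kidney, was not detected, like those carriers.

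Of the transporters that were not detected, 18 stayed under 10% of the 75th percentile on every array. The other 7, *Slc3a1*, *Slc7a13*, *Slc7a2*, *Slc6a7*, *Slc6a3*, *Slc36a3* and *Slc38a3*, passed it on 1 or more arrays without being well above background on all arrays of a group. The highest such value was 141% for *Slc36a3* on 1 *Sox7* (-/-) XEN-like array, while the other pair of that group lay at 1.77 and 3.64%.

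Markers of other cell types moved as follows. Of the ES markers 6 of 8 fell with Dex in *Sox7* (+/-) cells, where *Klf4* rose (1.46, limma adjusted p = 4.46e-08), and 7 of 8 fell in *Sox7* (-/-) cells. Their summed signal went from 25520 to 26690% down to 5348 to 5816% and from 51830 to 55260% down to 7375 to 8024%. The parietal endoderm markers were higher for 7 of 8 and 6 of 8 genes, and the extraembryonic endoderm markers for 5 of 7 in each genotype. These 5 were not the same genes. *Sox7* itself was called in *Sox7* (+/-) cells alone (1.30), and *Dab2* in *Sox7* (-/-) cells alone (2.55, beside 0.89 in *Sox7* (+/-) cells). Over all genes 11% were called higher with Dex in *Sox7* (+/-) cells and 14.6% in *Sox7* (-/-) cells, with 14.1% lower in each. Trophoblast markers summed to 286 to 299% in *Sox7* (+/-) ES cells and to 52.8 to 60.9% in the XEN-like cells of that genotype, and to 158 to 162% and 178 to 216% in *Sox7* (-/-) cells. The mesoderm markers summed to 63.1 to 81.5% in *Sox7* (+/-) ES cells and were under background in the other groups, and the neural markers summed to 34.2 to 139% over all arrays. The part of other cell types in the transporter levels was not tested.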

How the data were processed

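Total RNA of 12 samples was hybridised to one-colour Agilent mouse arrays. The authors extracted spot intensities with Agilent Feature Extraction (10.7.3.1 in the submitters' processing notes), and, per the file headers, the deposited processed intensity of each spot is background-subtracted but not scaled between arrays. The deposited table of all arrays also holds linear intensity, within 0.498% of the mean signal of each spot before background subtraction, and was used as an alternative. Probe positions in the files are on mm9.

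From these files, spots without outlier flags were averaged per probe, and log2 of the intensity minus the log2 of the 75th percentile of its array was taken. For 129 values of other probes no unflagged spot was left, and none of these belonged to a transporter. A probe was tested when each of the 3 arrays of some group read it well above background, which kept 25938 of 55681 probes, and no spot was saturated. A model with 4 groups was fitted to all 12 arrays with limma 3.58.1 in R 4.3.3 (lmFit and eBayes), with Benjamini-Hochberg adjustment over all probes tested in each of 5 comparisons. A call needed an adjusted p under 0.05 and more than 2-fold. Each gene was read by its brightest tested probe over all arrays. The groups came from the sample labels, with 3 arrays each, and the number of arrays limits the precision. The scripts were tested on simulated data. The alternatives were other background corrections, scalings, filters and variance models, slide and replicate number as blocks, and leaving out each array. Named in each comparison were called transporters whose groups did not overlap (for the difference in response, every called one), up to 12 in each direction by size, and in all comparisons *Slc3a2*, *Slc3a1*, *Slc7a5*, *Slc7a11*, *Slc1a5*, *Slc7a1*, *Slc7a3*, *Slc38a1* and *Slc38a2*. 1 transporter and 2 genes of the lists are not reported here, and the counts leave them out. Other genes were named after their values were seen. The transporters, the gene lists and the markers were chosen with earlier results of these data known.

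Samples with the same replicate number deviated from their group means with correlations of -0.0514 to 0.126, so that the numbers did not pair the samples.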

Additional observations from a re-analysis of the deposited data

Results flagged for a closer look

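By limma's test of the difference between the Dex responses of the genotypes, 9 transporters were called. As *Sox7* (-/-) minus *Sox7* (+/-) on the log2 scale, the difference was 7.471 for *Slc7a9*, 2.726 for *Slc43a2*, 1.639 for *Slc6a4*, 1.444 for *Slc7a4*, 1.181 for *Slc7a8* and 1.067 for *Slc43a1*. It was -2.002 for *Slc6a9*, -1.962 for *Slc7a5* and -1.447 for *Slc38a4*. For *Slc7a5* this is the value of the brighter probe, and the second probe gave -0.339 (limma adjusted p = 0.192). The values of *Slc7a9*, *Slc6a4* and *Slc7a8* rest on groups below background and are no measured sizes, and for *Slc7a8* the bounds do not settle the direction.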

How the results depend on the processing

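The counts below are transporters called higher or lower, and unless a value shows it the cause of a change was not tested. Of 262 counts under the alternatives, 225 stayed within 1.5 times the reported count and 37 did not. With normexp background correction, 3 were lower with Dex in *Sox7* (+/-) cells, 1 higher and 0 lower in *Sox7* (-/-) ES cells, and 2 more positive in the difference between the responses, where *Slc7a8* turned to -0.0323. With spike-in scaling, 11 were lower with Dex in *Sox7* (+/-) cells, 10 more positive and 1 more negative in the difference, and *Slc1a5* turned to 0.0396 between XEN-like groups. The deposited table gave 3 higher with Dex in *Sox7* (+/-) cells, 1 lower between XEN-like groups and 1 higher and 0 lower between ES groups, and between XEN-like groups it turned *Slc1a5* to 0.26, *Slc3a2* to 0.19 and *Slc7a1* to 0.10. Scaling by the median of detected probes gave 5 higher and 8 lower with Dex in *Sox7* (+/-) cells. Without a filter on dim probes, 8 were more negative in the difference. With probes above background on all arrays, which leaves 28 genes, 3 were lower with Dex in *Sox7* (+/-) cells, 2 higher between XEN-like groups, 1 higher and 1 lower between ES groups, and 3 more positive in the difference. With only the groups compared, 1 was lower between XEN-like groups. With the slide as a block, 0 were higher between ES groups and 1 was more negative in the difference. With no minimum fold, the counts were 15 and 10 with Dex in *Sox7* (+/-) cells, 10 and 6 between XEN-like groups, 12 and 9 between ES groups, and 12 and 7 in the difference. Leaving out each array in turn gave 2 to 4 higher between ES groups, with 4 without *Sox7* (+/-) ES replicate 1, and 1 to 3 more negative in the difference, with 1 without any single ES array or without *Sox7* (-/-) XEN-like replicate 1 or 2. It moved *Slc38a1* between XEN-like groups from -0.0234 (without *Sox7* (+/-) XEN-like replicate 3) to 0.14.

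With the replicate number as a block (replicate block) the counts were 6 higher and 6 lower with Dex in *Sox7* (+/-) cells and 12 and 10 in *Sox7* (-/-) cells, 4 and 3 between XEN-like groups, 2 and 3 between ES groups, and 6 and 3 in the difference, the same as without it. Genes at or below background on the arrays have only a bound, and 3 arrays a group limit what the fits can call.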
